A study of Homo sapiens with 12 samples.

Results

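The NF-kB genes described here are 40 listed genes: the transcription factor subunits, the proteins that hold them back or pass signals to them, and genes known as their targets in lymphocytes. The genes are listed by name, with no threshold on measured values, though the list was drawn up with earlier results of these data known. Of the 40, 37 were measured by a probe set that names that gene alone, among 19775 genes in all. BCL3, BIRC3 and TRAF2 were not analysed here. The arrays profiled 3 mantle cell lymphoma (MCL) lines, Mino, Rec-1 and SP-49, which are cultured malignant B cells. Compound E, which inhibits gamma-secretase, was given at 1 µM for 24 h (the GSI groups), and the Mock groups received DMSO at 0.1% for the same time. There are 6 groups of 2 arrays. All groups grew in RPMI medium with serum, at 15% for Mino and at 10% for Rec-1 and SP-49, so serum content and line cannot be told apart between Mino and the others. Each line stands for 1 tumour, and the labels do not say whether the 2 arrays of a group came from separate cultures, so a p-value measures only the spread between these arrays, which may be technical.

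NF-kB is a family of dimers built from p50 and p52 (encoded by NFKB1 and NFKB2) and from RELA, RELB and REL. In resting cells the dimers are held in the cytoplasm by IkB proteins such as the product of NFKBIA. In the canonical route, kinases mark the IkB proteins for destruction, which frees mainly RELA and REL dimers. In the alternative route, the kinase encoded by MAP3K14 drives the processing of p100 to p52, and TRAF3 keeps that kinase low. Many targets of NF-kB are its own brakes, among them NFKBIA, TNFAIP3 and CYLD, and in B cells NF-kB is known for survival and activation after signals from the B cell receptor and CD40. Gamma-secretase cuts Notch receptors free from the membrane, and its inhibition stops signalling through Notch.

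Levels are the authors' deposited RMA values, read here as log2. RMA is a method that corrects background, aligns arrays and summarises the probes of a probe set. The median of all values was 1.99, so a gene near 2 is at the dim end, where a true difference is understated, and a difference of 1 is a 2-fold difference. Arrays of 1 line correlated at 0.979 to 0.995 and arrays of different lines at 0.932 to 0.953. B cell markers averaged 8.14 to 9.04 per array over the 6 of 7 measured. T cell (5 of 6 measured), NK cell (4 of 4), myeloid (6 of 7), stromal (5 of 5) and epithelial (4 of 4) lists averaged 1.39 to 3.07. The MCL marker CCND1 averaged 8.52 in Mino, 10.12 in Rec-1 and 10.45 in SP-49 Mock. SOX11, another MCL marker, averaged 7.42, 4.90 and 8.56 in the same order, and CD5 was near the dim end in Rec-1 (2.40) and SP-49 (2.73). The list of 5 plasma cell genes averaged 4.74 to 6.47 per array, and its member JCHAIN averaged 9.74 in Mino, 4.75 in Rec-1 and 1.86 in SP-49 Mock. The inhibitor lowered HES1, a direct Notch target, by a log2 change of -3.80 in Rec-1 (limma adjusted p = 3.45e-06) and -3.51 in SP-49 (limma adjusted p = 1.18e-05), against -0.07 in Mino, where it was already at 1.69 and 2.002 in Mock. MYC fell by 1.53 in Rec-1 and 1.55 in SP-49 on the log2 scale, and its change in Mino was 0.13.

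Without inhibitor, SP-49 carried higher levels of most of the measured NF-kB genes than Mino. In the limma fit, 26 of the 37 (70.3%) passed an adjusted p of 0.05 between SP-49 Mock and Mino Mock, against 25.6% of all genes. Of these 25 were higher in SP-49, where 13.9% of all genes were, and 1, TRAF3, was lower, where 11.8% of all genes were. The median difference was 1.08 over the 37 genes and -0.03 over all genes. The 3' minus 5' difference of the ACTB control probe sets, a reading of RNA quality, was 2.294 and 2.357 in SP-49 Mock, 1.734 and 1.787 in Mino Mock, and 1.999 and 1.825 in Rec-1 Mock. Its part in the differences between lines was not tested. Rec-1 Mock differed from SP-49 Mock at 24 members (64.9%, against 28.9% of all genes), 21 of them lower in Rec-1 (15.8% of all genes) and 3 higher (13.1%), and the median difference was -0.66, against 0.04 over all genes. Rec-1 Mock differed from Mino Mock at 20 members (54.1%, against 26.1% of all genes), 13 higher in Rec-1 (12.8% of all genes) and 7 lower (13.3%), with a median of 0.28 against 0.01. The last count fell to 12 without Mino Mock 1 and to 13 without Rec-1 Mock 1, and the calls of NFKBIA, NFKBIE, TNIP2, RIPK2, CFLAR, GADD45B, IER3, CD80, CD86 and LTA in this pair were each lost in at least 1 such fit. These comparisons share Mock arrays, so they are not independent of each other. When genes dim in every group were left out, all 37 members stayed and the shares of all genes rose to 36%, 40.1% and 36.4% in the same order.

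By pattern, 20 members (8.08% of all genes) were higher in SP-49 than in both other lines: REL, NFKBIA, NFKBIE, NFKBIZ, TNFAIP3, TNIP1, CYLD, MAP3K14, MAP3K8, TRAF1, CFLAR, GADD45B, IER3, CD80, CD83, CD86, TNF, PLEK, BATF and DUSP2. TRAF3 was the 1 member lower there than in both (5.81% of all genes). Mino was lower than both other lines at 11 members (5.76% of all genes), among them NFKBIZ, BIRC2, TNFAIP8, ICAM1 and EBI3. Rec-1 was lower than both others at 6 (7.91%), which were NFKBIA, GADD45B, IER3, CD80, CD86 and LTA, and higher than both at 2 (6.52%), which were RIPK2 and TNIP2. At 6 members all 3 lines differed in the order SP-49, Rec-1, Mino (1.31% of all genes), namely NFKBIE, NFKBIZ, TNFAIP3, MAP3K8, CFLAR and CD83. At 5 the order was SP-49, Mino, Rec-1 (1.87%), namely NFKBIA, GADD45B, IER3, CD80 and CD86. These patterns count a member only where each comparison concerned passed the threshold, and they use the brightest probe set of each gene. Every member placed lowest or highest in Rec-1 has a Rec-1 against Mino call listed above as lost with 1 array left out, as do NFKBIE and CFLAR. Calls for Rec-1 against SP-49 were lost in the same way at TRAF3, NFKBIE, DUSP2, TNIP2 and LTA. The call of TNIP1 for SP-49 against Mino was also lost so. At least 1 pair of lines differed at 29 members, against 41.3% of all genes. The 8 members that passed in no pair of lines were NFKB1, NFKB2, RELA, RELB, NFKBIB, IKBKE, SLAMF1 and SOD2. SOD2, the mitochondrial superoxide dismutase, is represented by a probe set with a mean of 1.99, at the dim end, and its other probe sets also name another gene.

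**Figure D1:**
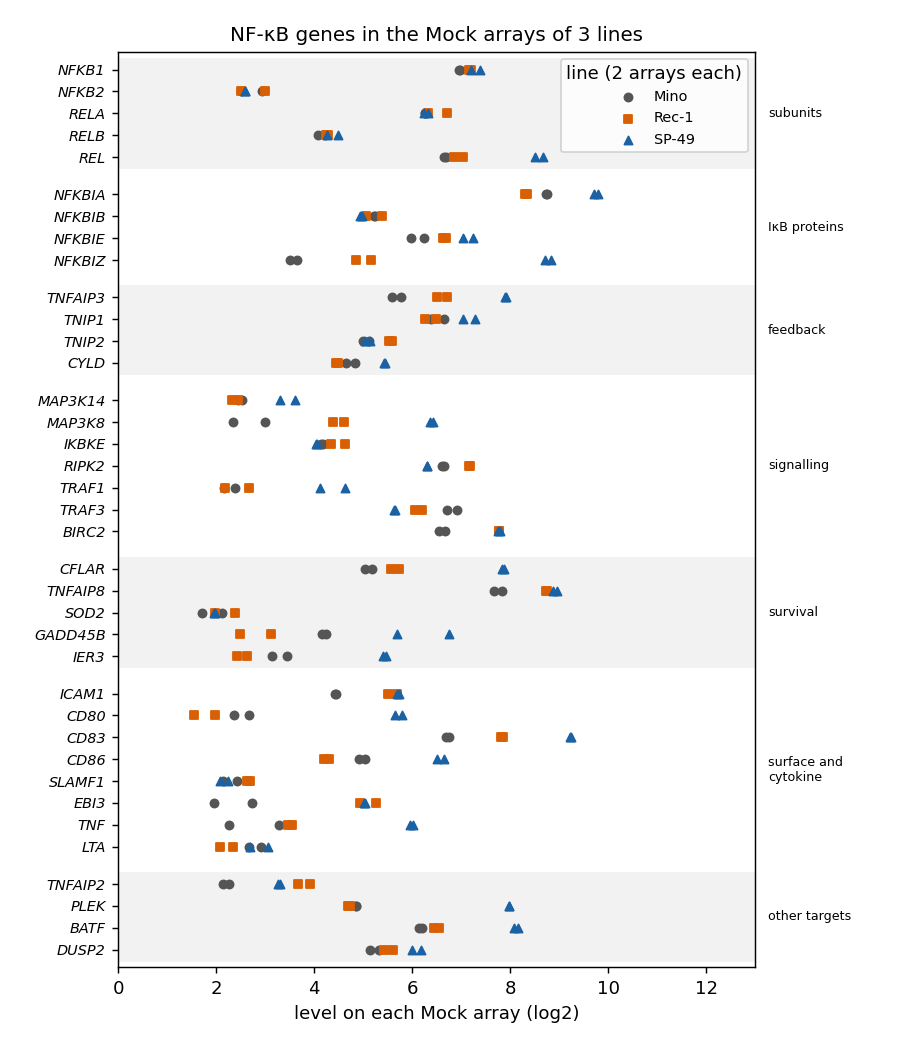
RMA level (log2) of the 37 measured NF-kB genes in Mock arrays of Mino, Rec-1 and SP-49, grouped by role; each point is 1 array. Points of SP-49 lie to the right at NFKBIZ, PLEK, CD83 and CFLAR, while those of NFKB1 and RELA lie close together in all 3 lines.

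Among the subunits, REL was the one whose representative probe set differed between lines. REL encodes c-Rel, the subunit most tied to lymphocytes, and its Mock levels were 6.64 and 6.69 in Mino, 7.04 and 6.86 in Rec-1, and 8.66 and 8.51 in SP-49. SP-49 stood above every array of the other lines, by 3.78-fold over Mino (log2 1.92, limma adjusted p = 3.28e-06), and Rec-1 was 3.11-fold below SP-49. One of REL's 5 probe sets differed in the opposite direction between SP-49 and Mino, by -0.02, and the other 4 passed as higher in SP-49. NFKB1, which encodes p50 and its precursor, read 6.96 and 6.98 in Mino, 7.20 and 7.16 in Rec-1, and 7.39 and 7.20 in SP-49. RELA, the main activating subunit of the canonical route, read 6.26 and 6.26 in Mino, 6.70 and 6.33 in Rec-1, and 6.31 and 6.24 in SP-49. The dimmer of RELA's 2 probe sets was higher in Rec-1 than in SP-49 by 0.99 (limma adjusted p = 0.0147). RELB, the partner of p52, read 4.07 and 4.22, then 4.29 and 4.23, then 4.49 and 4.25 in the same order. By the representative probe set, neither these genes nor NFKB2, at 2.50 to 2.99 in all 6 Mock arrays, passed the threshold in any pair of lines.

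Among the genes of the IkB family, NFKBIZ had the largest difference between lines of all 37 members. It encodes a nuclear IkB protein that acts with p50 on a group of secondary targets, and it read 3.64 and 3.51 in Mino, 5.15 and 4.85 in Rec-1, and 8.71 and 8.83 in SP-49. The 3 lines did not overlap, and SP-49 was 36.7-fold above Mino (log2 5.20, 95% interval 4.90 to 5.49, limma adjusted p = 5.33e-10) and 13.7-fold above Rec-1 (limma adjusted p = 4.35e-09). Rec-1 was 2.68-fold above Mino (limma adjusted p = 1.11e-05). NFKBIA, the classical IkB and a rapid target of NF-kB, read 8.75 and 8.72 in Mino, 8.31 and 8.35 in Rec-1, and 9.80 and 9.70 in SP-49, a 2.02-fold difference between SP-49 and Mino (limma adjusted p = 5.34e-05). Other probe sets of NFKBIA gave -0.14 for that difference, and 0.10 in place of -0.41 for Rec-1 minus Mino, so its order of lines rests on the probe set used. NFKBIE, another cytoplasmic IkB, was higher in SP-49 than in Mino by 1.02 and than in Rec-1 by 0.47, while NFKBIB passed in no pair.

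Of the feedback genes, TNFAIP3 encodes A20, an enzyme that edits ubiquitin and damps the route from receptors to the IkB kinases. It read 5.59 and 5.76 in Mino, 6.70 and 6.50 in Rec-1, and 7.90 and 7.91 in SP-49, again with no overlap, at 4.68-fold more in SP-49 than in Mino (limma adjusted p = 3.88e-07). CYLD, a deubiquitinase with a similar role, was higher in SP-49 than in Mino by 0.70 and than in Rec-1 by 0.98. TNIP1, which binds A20, was higher by 0.64 and 0.79, and TNIP2, also an A20 partner, was higher in Rec-1 than in Mino by 0.51 and than in SP-49 by 0.48. The dimmer TNIP1 probe set gave 0.16 for SP-49 minus Mino and, the other way, 0.03 for Rec-1 minus SP-49.

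Among the signalling genes, MAP3K8 (TPL2), a kinase held by p105, read 3.00 and 2.34 in Mino, 4.60 and 4.39 in Rec-1, and 6.37 and 6.43 in SP-49. The lines again did not overlap, and the difference between SP-49 and Mino was 13.2-fold (limma adjusted p = 1.86e-06). The other MAP3K8 probe set gave 0.90 for SP-49 minus Mino and -0.12 for Rec-1 minus SP-49. The size of this difference and the order of lines therefore rest on the probe set used. MAP3K14 (NIK), the kinase of the alternative route, was dim in Mino and Rec-1 (2.32 to 2.52) and at 3.60 and 3.29 in SP-49. TRAF3, which restrains NIK, ran the other way and is named after its values were seen. It read 6.70 and 6.90 in Mino, 6.19 and 6.06 in Rec-1, and 5.62 and 5.66 in SP-49, with SP-49 2.24-fold below Mino (limma adjusted p = 3.40e-05). Another TRAF3 probe set gave -0.20 in place of 0.49 for Rec-1 minus SP-49. TRAF1, an adaptor induced by NF-kB, read 2.17 to 2.67 in the Mino and Rec-1 Mock arrays and 4.11 and 4.63 in SP-49. The dimmer TRAF1 probe set gave 0.66 for SP-49 minus Mino and -0.58 for Rec-1 minus SP-49. In the latter pair 1 of the 2 passed. BIRC2 (cIAP1), a ubiquitin ligase that works with TRAF proteins, was higher in both Rec-1 and SP-49 than in Mino by 1.17. RIPK2, a kinase downstream of NOD receptors, was higher in Rec-1 than in Mino by 0.55 and than in SP-49 by 0.86. The dimmer RIPK2 probe set gave 0.39 and 0.02 for these differences, and 1 of the 2 passed in each pair. IKBKE, an IkB kinase relative, passed in no pair by its brightest probe set, while its other probe set was higher than in Mino by 1.03 in Rec-1 and by 0.705 in SP-49.

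The survival targets split by line. CFLAR encodes c-FLIP, which blocks caspase-8 at death receptors, and it read 5.03 and 5.19 in Mino, 5.57 and 5.74 in Rec-1, and 7.83 and 7.86 in SP-49. SP-49 exceeded Mino by 6.69-fold (limma adjusted p = 5.68e-08) and Rec-1 by 4.59-fold. Of CFLAR's 14 probe sets, 10 passed as higher in SP-49 than in Mino. GADD45B, a stress-induced regulator of kinase signalling, read 4.17 and 4.24 in Mino, 2.49 and 3.12 in Rec-1, and 6.76 and 5.69 in SP-49. IER3, an early response gene, read 3.44 and 3.14, then 2.43 and 2.62, then 5.47 and 5.39 in the same order. These genes therefore had Rec-1 as their lowest line, 10.7-fold below SP-49 for GADD45B and 7.49-fold for IER3. For Rec-1 against Mino, 2 of the 4 GADD45B probe sets were lower past the threshold and another differed by 0.42 the other way. TNFAIP8, an inhibitor of apoptosis, was higher in Rec-1 and SP-49 than in Mino, by 0.99 and 1.17.

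The surface and cytokine targets include costimulatory molecules through which B cells engage T cells. CD80 read 2.66 and 2.37 in Mino, 1.98 and 1.54 in Rec-1, and 5.64 and 5.79 in SP-49, so that SP-49 was 9.17-fold above Mino (limma adjusted p = 1.26e-07) and 15.5-fold above Rec-1. The Mino and Rec-1 levels of CD80 lie toward the dim end. All 3 CD80 probe sets passed in both pairs, at 1.30 to 3.20 for SP-49 minus Mino and -3.96 to -1.22 for Rec-1 minus SP-49. CD86, the other ligand of CD28, read 5.04 and 4.91 in Mino, 4.19 and 4.31 in Rec-1, and 6.65 and 6.51 in SP-49, with Rec-1 5.03-fold below SP-49. CD83, an activation marker of B cells and dendritic cells, read 6.74 and 6.68 in Mino, 7.86 and 7.81 in Rec-1, and 9.22 and 9.24 in SP-49, at 5.73-fold more in SP-49 than in Mino (limma adjusted p = 3.05e-08). By the representative probe sets the 2 ligands of CD28 had Rec-1 as their lowest line, whereas CD83 was lowest in Mino. Against Mino, 1 of the 3 CD80 probe sets and 2 of the 3 CD86 probe sets were lower in Rec-1 past the threshold, and others of CD80 and CD86 differed by 0.0706 and 0.0097 the other way. TNF, the cytokine that activates the canonical route, read 2.26 and 3.28 in Mino, 3.46 and 3.55 in Rec-1, and 6.02 and 5.96 in SP-49, a 9.28-fold difference between SP-49 and Mino (limma adjusted p = 3.50e-06). Rec-1 and Mino did not differ past the threshold in TNF (log2 0.73, limma adjusted p = 0.0648), and the Mino arrays lay far apart. EBI3, a subunit shared by interleukins of the IL-12 family, read 1.94 and 2.72 in Mino, 4.93 and 5.26 in Rec-1, and 5.02 and 5.04 in SP-49. EBI3 was thus higher in Rec-1 and SP-49, at 6.79-fold and 6.49-fold above Mino. ICAM1, an adhesion molecule, was higher in Rec-1 and SP-49 than in Mino, by 1.16 and 1.28, and LTA, a relative of TNF, was dim in all lines (2.08 to 3.04).

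Of the other targets, PLEK encodes pleckstrin, a substrate of protein kinase C in blood cells. It read 4.85 and 4.85 in Mino, 4.72 and 4.68 in Rec-1, and 7.97 and 7.98 in SP-49, at 8.69-fold more in SP-49 than in Mino (limma adjusted p = 3.68e-08) and 9.67-fold more than in Rec-1. Both of its probe sets were higher in SP-49 than in Mino, by 2.95 and 3.12. BATF, a partner of JUN and IRF4 in lymphocytes, was higher in SP-49 than in Mino by 1.95 and than in Rec-1 by 1.61. DUSP2, a phosphatase of MAP kinases, was higher in SP-49 by 0.86 and 0.58. TNFAIP2 was higher than in Mino by 1.60 in Rec-1 and by 1.08 in SP-49. Its other probe set gave 0.39 and -0.02 for these differences, and 1 of the 2 passed in each pair. SLAMF1, a surface receptor, read 2.08 to 2.68 in all Mock arrays.

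**Figure D2:**
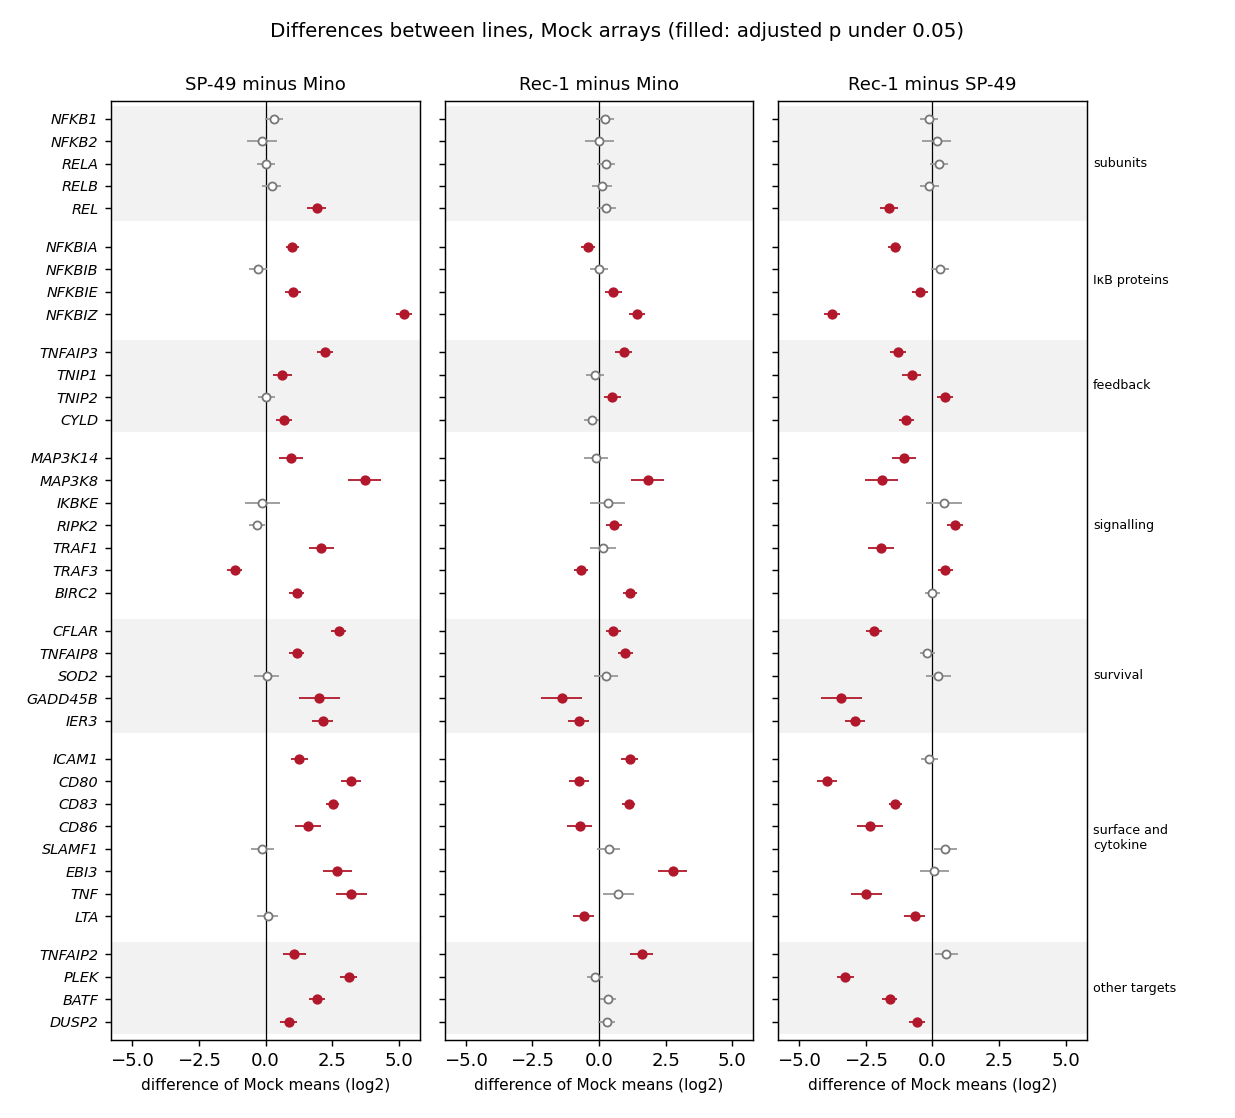
Differences between Mock group means on the log2 scale for the 37 genes in the 3 pairs of lines, with 95% intervals from the limma fit; filled points passed an adjusted p of 0.05. NFKBIZ lies farthest from 0, at 5.20 for SP-49 minus Mino, and TRAF3 (-1.16) is the filled point below 0 in that pair.

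The kappa B consensus is the 10-base motif that NF-kB dimers bind, and it was searched on both strands of the 250 bases before the start site that RefSeq's promoter table (GRCh38.p14) lists first for each gene. A promoter was found for 33 of the 37 genes, all but RELB, NFKBIE, RIPK2 and IER3. A match occurred in 10 of the 33 (30.3%), against 9.57% of the 27305 genes in the table and 11.1% of the 15384 measured genes in it. Among the 20 genes that passed as higher in SP-49 than in both other lines, 18 have a promoter and 7 of these a match (REL, NFKBIA, NFKBIZ, TNFAIP3, MAP3K8, CFLAR and GADD45B). Among the other 17 genes, some of which also averaged highest in SP-49 Mock, 15 have a promoter and 3 a match (NFKB1, TRAF3 and EBI3). A match describes the letters and is not a binding site measured here, and several of these genes are textbook targets with known sites. The start sites used for CFLAR and TNFAIP3 lie inside the spans of these genes. The stretches are shown for 6 of the SP-49 genes, which carry the Mock comparison, and for TRAF3, which ran the other way. Each is in the direction of its gene, with the match in capitals and up to 30 flanking bases.
NFKBIZ: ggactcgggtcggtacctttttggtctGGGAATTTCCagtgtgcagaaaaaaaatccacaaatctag
CFLAR: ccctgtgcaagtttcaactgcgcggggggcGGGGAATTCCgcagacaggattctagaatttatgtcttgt
NFKBIA: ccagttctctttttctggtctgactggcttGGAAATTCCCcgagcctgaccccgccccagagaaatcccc
REL: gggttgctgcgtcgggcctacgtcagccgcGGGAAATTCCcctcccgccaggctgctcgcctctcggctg
TNFAIP3: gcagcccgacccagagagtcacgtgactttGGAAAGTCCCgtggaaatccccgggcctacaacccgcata
MAP3K8: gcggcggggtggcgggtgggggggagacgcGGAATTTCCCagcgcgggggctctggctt
TRAF3: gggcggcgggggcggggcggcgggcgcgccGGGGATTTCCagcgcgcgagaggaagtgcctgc
The NFKBIZ stretch lies at chr3:101827740-101827806 on the plus strand, with its match 223 to 214 bases before the start site. That of CFLAR lies at chr2:201118589-201118658 (plus strand, 97 to 88 bases before the start), that of NFKBIA at chr14:35404791-35404860 (minus strand, 81 to 72 bases) and that of REL at chr2:60881497-60881566 (plus strand, 47 to 38 bases). The TNFAIP3 stretch lies at chr6:137867162-137867231 (plus strand, 67 to 58 bases), that of MAP3K8 at chr10:30433962-30434020 (plus strand, 29 to 20 bases) and that of TRAF3 at chr14:102777386-102777448 (plus strand, 33 to 24 bases). TNFAIP3 holds another match 55 to 46 bases before its start, and REL one that overlaps the match shown.

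The inhibitor raised a small group of NF-kB genes in Rec-1 and none past the threshold in the other lines. In Rec-1, 7 of the 37 members (18.9%) rose and 0 fell at a limma adjusted p of 0.05, where 2.15% of all genes rose and 3.62% fell (5.77% in either direction, or 8.27% when dim genes were left out). The GSI arrays lay wholly above the Mock arrays at 15 members and wholly below at 3, against 22.9% and 22.3% of all genes. They are PLEK, CFLAR, NFKBIZ, TNFAIP8, BIRC2, CYLD and CD83, which cover 1 IkB gene, 1 feedback gene, 1 signalling gene, 2 survival targets, 1 surface target and 1 other target. The median change of the members was 0.11, against 0.01 over all genes. It was 0.20 when quantile normalization was applied again (all genes 0.01) and 0.04 with each array centred on its median (all genes -0.06). In this line 12 members had an unadjusted p under 0.05. The share of all genes at that cut was not computed, here or for the other unadjusted counts. Those counts are therefore not read as results. The count of members that passed rests on the setting: it was 4 when each array was centred on its median, 4 when all probe sets of a gene were averaged, and 0 when the fit held the 4 Rec-1 arrays alone, and it was 2 to 8 when 1 array was left out. It was 2 without Rec-1 Mock 1 (NFKBIZ and PLEK) and 2 without Rec-1 Mock 2 (CFLAR and PLEK). Without Rec-1 GSI 1 it was 8, of which 3 fell (NFKB1, IKBKE and CD86). Beside these counts stand the 3' minus 5' differences of the GAPDH control probe sets, a reading of RNA quality, which were 0.413 and 0.367 in Rec-1 Mock and 0.593 and 0.488 in Rec-1 GSI. Their part in the counts was not tested.

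PLEK changed most. Its Rec-1 levels were 4.72 and 4.68 in Mock and 6.11 and 5.70 in GSI, which do not overlap and differ by 2.3-fold (log2 1.20, 95% interval 0.89 to 1.52, limma adjusted p = 0.000849). The call held when any 1 of the 12 arrays was left out, with an adjusted p up to 0.0129. The other PLEK probe set gave a different reading: 4.33 and 4.56 in Mock and 4.49 and 4.38 in GSI, a change of -0.01 (limma adjusted p = 0.98). The rise in PLEK is therefore that of 1 of 2 probe sets, although both separated SP-49 from Mino in Mock.

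CFLAR read 5.57 and 5.74 in Rec-1 Mock and 6.47 and 6.47 in Rec-1 GSI, a 1.77-fold rise (log2 0.82, limma adjusted p = 0.00466). TNFAIP8 read 8.74 and 8.73 in Mock and 9.51 and 9.33 in GSI, a 1.61-fold rise (log2 0.69, limma adjusted p = 0.00926). In both survival genes every GSI array lay above every Mock array. They differ in their other probe sets. For TNFAIP8, 2 of 3 passed, with changes of 0.69 and 0.54. For CFLAR, 1 of 14 passed, and the 14 changes ran from -0.52 to 0.82. Leaving out Rec-1 Mock 1 took the adjusted p of CFLAR to 0.0531, and leaving out Rec-1 Mock 2 took that of TNFAIP8 to 0.069.

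NFKBIZ read 5.15 and 4.85 in Rec-1 Mock and 5.87 and 5.76 in Rec-1 GSI, a 1.76-fold rise (log2 0.81, 95% interval 0.52 to 1.11, limma adjusted p = 0.00498). Its other probe set changed by 0.75 (limma adjusted p = 0.0638). The Mock and GSI arrays did not overlap, and the treated level stayed below the 8.71 and 8.83 of SP-49 Mock. CYLD read 4.48 and 4.45 in Mock and 5.04 and 4.94 in GSI, a 1.44-fold rise (log2 0.52, limma adjusted p = 0.0407). The CYLD call was the least stable, since it held in 4 of the 12 fits with 1 array left out and in 0 of its 7 probe sets when each was tested on its own. Without Rec-1 Mock 2 the adjusted p of NFKBIZ was 0.0574 and that of CYLD 0.185.

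BIRC2 read 7.78 and 7.77 in Rec-1 Mock and 8.32 and 8.32 in Rec-1 GSI, a 1.46-fold rise (log2 0.55, limma adjusted p = 0.0262). CD83 read 7.86 and 7.81 in Mock and 8.34 and 8.32 in GSI, a 1.41-fold rise (log2 0.50, limma adjusted p = 0.0264). Both genes have 1 probe set, and in both the gap between groups exceeded the gap between replicates many times over. Without Rec-1 Mock 2 their adjusted p was 0.132 and 0.149.

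**Figure D3:**
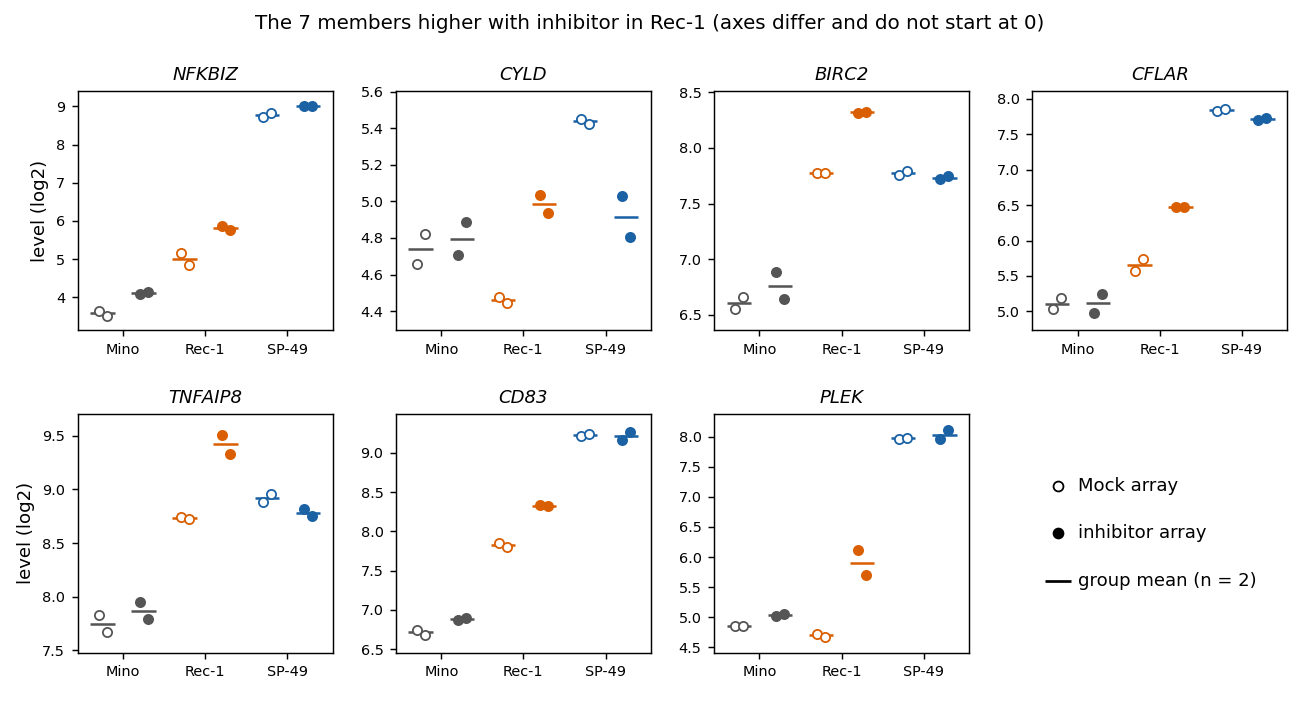
RMA level (log2) in every array of the 7 genes that rose with the inhibitor in Rec-1, for Mock and GSI arrays of each line. In Rec-1 all GSI points lie above the Mock points, at 6.11 and 5.70 against 4.72 and 4.68 for PLEK, while CYLD in SP-49 has its GSI points (5.03 and 4.80) below its Mock points (5.45 and 5.42).

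**Figure D4:**
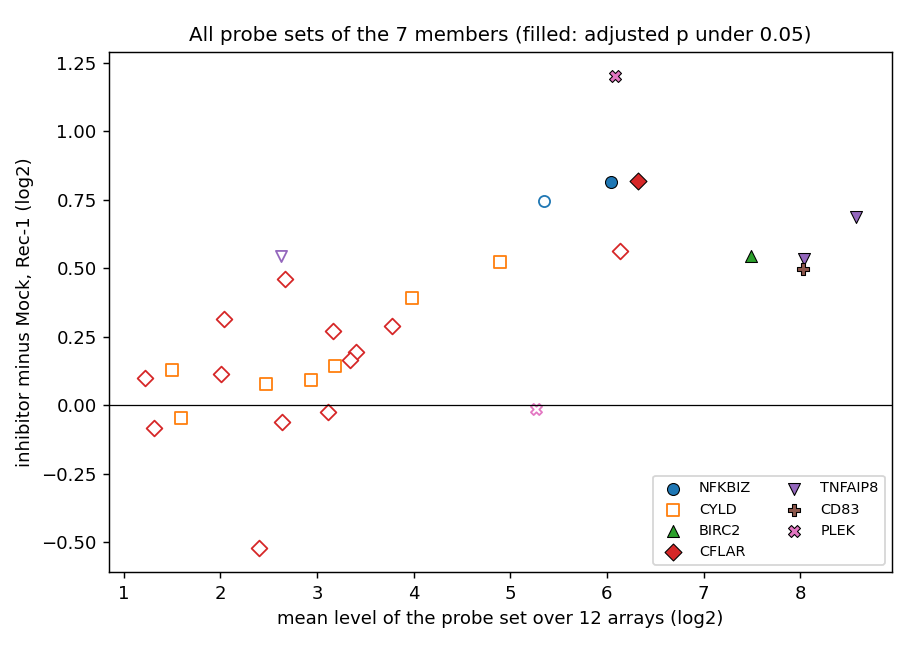
Change with the inhibitor in Rec-1 (GSI minus Mock, log2) of every probe set of the 7 genes, set against the mean level of that probe set. The brightest PLEK probe set sits at 1.20 and the other at -0.01, and the CFLAR probe sets spread from -0.52 to 0.82.

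No subunit passed in Rec-1. REL read 7.04 and 6.86 in Mock and 7.36 and 7.28 in GSI, a change of 0.37 (95% interval 0.03 to 0.72, limma adjusted p = 0.215). RELB read 4.29 and 4.23, then 4.47 and 4.74, a change of 0.35 (limma adjusted p = 0.275). NFKB1 read 7.20 and 7.16, then 7.14 and 6.67, a change of -0.28 with an interval from -0.61 to 0.06. In NFKB1 the second GSI array alone was low. RELA changed by -0.28, from 6.70 and 6.33 to 6.36 and 6.12, and NFKB2 by -0.10, from 2.50 and 2.99 to 2.59 and 2.69. Their intervals do not show that the subunits were unaffected. NFKBIA (0.29, limma adjusted p = 0.194) and TNFAIP3 (0.35, limma adjusted p = 0.193), the usual rapid targets, did not pass. The members with a size of at least 0.5 that did not pass were IKBKE, with Mock from 4.35 to 4.62 and GSI from 3.10 to 4.40, GADD45B, with Mock from 2.49 to 3.12 and GSI from 3.17 to 3.83, and EBI3, with Mock from 4.93 to 5.26 and GSI from 5.74 to 5.77. The wide GSI range of IKBKE comes from Rec-1 GSI 2, the array with the narrowest signal range of all 12 (SD of its values 1.949).

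In SP-49, where the inhibitor lowered HES1 and MYC, 0 of the 37 members passed in limma, against 0.192% of all genes (0.0202% rose and 0.172% fell). At an unadjusted p under 0.05 there were 4, and the smallest adjusted p was 0.184. CD80 had it: 5.64 and 5.79 in Mock and 5.01 and 5.04 in GSI, a change of -0.69 (95% interval -1.07 to -0.32). CYLD read 5.45 and 5.42 in Mock and 5.03 and 4.80 in GSI, a change of -0.52 (95% interval -0.81 to -0.23, limma adjusted p = 0.193). In both genes the groups did not overlap, yet neither passed. The GSI arrays lay wholly below the Mock arrays at 15 members and wholly above at 5, against 24.4% and 18.1% of all genes. Among the subunits, NFKB1 read 7.39 and 7.20, then 7.20 and 7.22, RELA 6.31 and 6.24, then 6.37 and 6.55, and RELB 4.49 and 4.25, then 4.97 and 4.55. REL read 8.66 and 8.51 in Mock and 8.52 and 8.98 in GSI, and NFKB2 2.59 and 2.59, then 2.73 and 2.54. The Mock and GSI arrays of NFKB1, REL and NFKB2 overlapped. NFKBIZ was the member with the largest difference between SP-49 and Mino in Mock. It read 8.71 and 8.83 in SP-49 Mock and 9.02 and 8.999 with the inhibitor, which do not overlap. The change was 0.24 (95% interval -0.06 to 0.53, limma adjusted p = 0.691). The other NFKBIZ probe set went the other way, from 7.94 and 7.96 in Mock to 7.81 and 7.81 in GSI, a change of -0.14.

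In Mino, where HES1 was at the dim end without inhibitor, 0 of the 37 members passed in limma, as did 0 (0%) of all genes. At an unadjusted p under 0.05 there were 4, and the smallest adjusted p was 0.835. The GSI arrays lay wholly above the Mock arrays at 11 members and wholly below at 5, against 16.2% and 17% of all genes. The members with a size of at least 0.5 were TNF, with Mock from 2.26 to 3.28 and GSI from 3.64 to 3.66, MAP3K8, with Mock from 2.34 to 3.00 and GSI from 3.23 to 3.71, NFKB2, with Mock from 2.51 to 2.94 and GSI from 3.00 to 3.82, and NFKBIZ, with Mock from 3.51 to 3.64 and GSI from 4.09 to 4.14. All 4 lie toward the dim end in this line. NFKB1 (6.96 and 6.98, then 6.86 and 6.87), RELA (6.26 and 6.26, then 6.07 and 5.92), RELB (4.07 and 4.22, then 3.97 and 3.88) and REL (6.64 and 6.69, then 6.69 and 6.67) stayed within 0.5 of their Mock arrays.

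**Figure D5:**
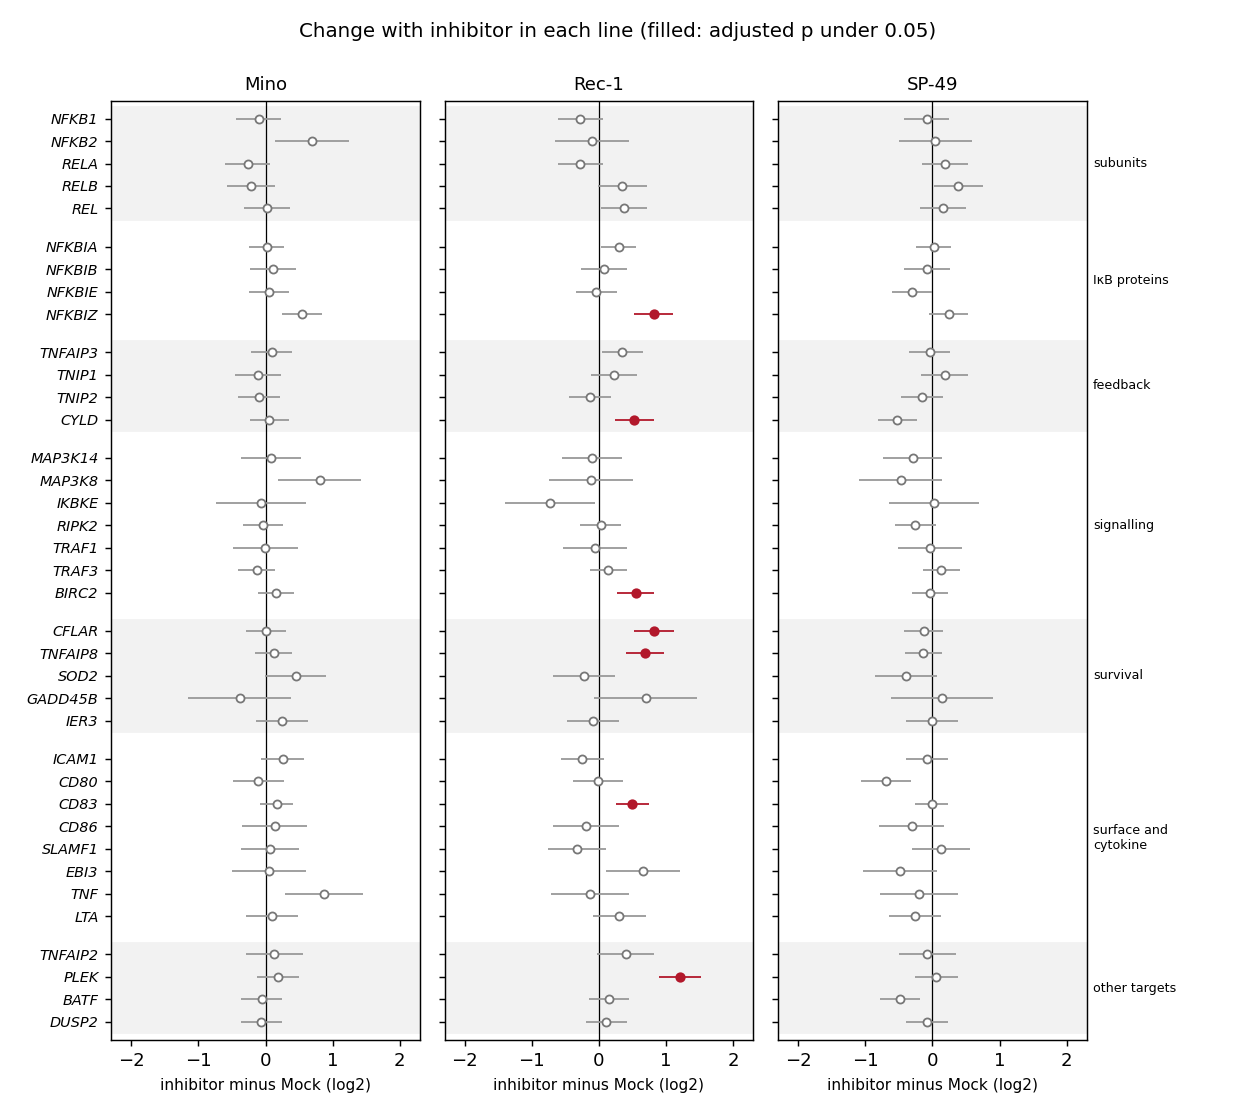
Change with the inhibitor (GSI minus Mock, log2) of the 37 genes in each line, with 95% intervals from the limma fit; filled points passed an adjusted p of 0.05. The 7 filled points are all in Rec-1 and above 0, from 0.50 for CD83 to 1.20 for PLEK.

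A call in Rec-1 and none elsewhere does not show that the lines respond differently, so the difference of responses was tested itself. Between Rec-1 and Mino it passed for 1 member, PLEK (1.02, 95% interval 0.58 to 1.47, limma adjusted p = 0.036), where 0.561% of all genes were higher in Rec-1 and 0.87% lower (1.43% in either direction). Between Rec-1 and SP-49 it passed for 2, PLEK (1.14, limma adjusted p = 0.0345) and CYLD (1.04, 95% interval 0.64 to 1.45, limma adjusted p = 0.0359), where 0.384% of all genes were higher and 0.172% lower (0.556% in either direction). Each of these 3 calls held in 2 of the 12 fits with 1 array left out, those without a Rec-1 GSI array, and was lost in the fits that left out any Mino, SP-49 or Rec-1 Mock array. With each probe set tested on its own, 0 of the 2 for PLEK and 0 of the 7 for CYLD passed in these differences. CFLAR came close, at 0.81 against Mino (limma adjusted p = 0.065) and 0.95 against SP-49 (limma adjusted p = 0.0568). For NFKBIZ, BIRC2, TNFAIP8 and CD83 the difference did not pass against either line. For SP-49 against Mino it passed for 0 members in limma, against 0.0455% of all genes (0.00506% higher and 0.0405% lower). At an unadjusted p under 0.05 there were 7 members, with no share of all genes computed at that cut.

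The wider pathway was read from 58 further genes of NF-kB signalling and known targets, of which 53 were measured. In Rec-1 the inhibitor raised 3 of them (5.66%) and lowered 0, near the 5.77% of all genes that passed in either direction (2.15% rose). They are BCL10 (0.60, limma adjusted p = 0.0242), which links the B cell receptor to the IkB kinases, CCL22 (0.68, limma adjusted p = 0.0436), a chemokine for T cells, and BCL2A1 (0.93, limma adjusted p = 0.0457), an anti-apoptotic BCL2 relative. These calls held in 9, 3 and 4 of the 12 fits with 1 array left out. In limma 0 of the 53 passed in SP-49, with 10 at an unadjusted p under 0.05, and 0 in Mino, with 3. Between the Mock groups, 26 differed between SP-49 and Mino (49.1%, against 25.6% of all genes), 20 higher and 6 lower in SP-49. The smallest adjusted p values there were those of CCL22 (5.67), BCL2A1 (7.50) and NFKBID (2.18). BCL2A1 averaged 2.40 in Mino, 5.71 in Rec-1 and 9.90 in SP-49. Rec-1 was higher than SP-49 at 4 and lower at 22 (49.1% in all, against 28.9% of all genes), and by adjusted p CCR7 (-6.34), CCL22 (-5.71) and CD44 (-2.89) came first. It was higher than Mino at 12 and lower at 10 (41.5%, against 26.1%), and by adjusted p CCR7 (-5.78), LTB (3.10) and CXCR5 (2.89) came first. CCR7, a lymph node homing receptor, averaged 7.34 in Mino, 1.56 in Rec-1 and 7.89 in SP-49, so the wider list does not run 1 way in all lines.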

How the data were processed

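The deposited table holds RMA values, read here as log2 because they ran from 0.58 to 12.78 (the base is not given in the sources used here). RMA and limma are named in the submitters' processing notes, without versions. Of 54675 probe sets, 41097 name 1 gene, 1801 several and 11777 none. Each of the 19775 genes was represented by the brightest probe set that names it alone, by mean level. The 37 members have 91 such probe sets, 24 of the members more than 1. A limma model (limma 3.58.1, R 4.3.3) of 6 group means was fitted to all genes and all 12 arrays, with Benjamini-Hochberg adjustment over the 19775 genes and a threshold of 0.05. The fit had 6 residual and 5.22 prior degrees of freedom, and the median standard error of an inhibitor change was 0.164. The number of arrays limits the precision. No pair of arrays held identical values. Array values were given for the 5 subunits, the members past the threshold in an inhibitor comparison or a difference of responses, and the 12 of widest Mock range. Members of at least 0.5 that did not pass were given by range. Outside this rule, array values were also given for NFKBIA, TRAF3, TRAF1 and MAP3K14 in Mock and for CD80 with the inhibitor in SP-49. Members and lists were chosen with earlier results of these data known. Alternatives were another probe set rule, normalization, variance model, replicate block, dim filter and each array left out. The procedure was run on simulated data in which all genes had the same spread and all lines the same base level. These arrays differ in both, so that run does not measure the error of the calls.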

Additional observations from a re-analysis of the deposited data

Results flagged for a closer look

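The change with the inhibitor differed between lines, by the test of the difference itself, for PLEK between Rec-1 and Mino (1.02, limma adjusted p = 0.036), for PLEK between Rec-1 and SP-49 (1.14, limma adjusted p = 0.0345) and for CYLD between Rec-1 and SP-49 (1.04, limma adjusted p = 0.0359). In PLEK both GSI arrays of Rec-1 lay above both Mock arrays. In CYLD both GSI arrays lay above both Mock arrays in Rec-1 and below both in SP-49. With 1 array left out, the adjusted p reached 0.127 for PLEK against Mino (without Mino GSI 1), 0.161 for PLEK against SP-49 (without SP-49 Mock 1) and 0.172 for CYLD (without SP-49 Mock 1). Both PLEK differences share the Rec-1 arrays and come from 1 of its 2 probe sets. The other gave 0.22 against Mino and 0.03 against SP-49. The 7 CYLD probe sets ran from 0.01 to 1.04 for Rec-1 minus SP-49. With each probe set tested on its own, 0 of the 2 for PLEK and 0 of the 7 for CYLD passed in these differences.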

How the results depend on the processing

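The count of members that passed with the inhibitor in Rec-1, 7 as reported and all higher, was 4 with all probe sets of a gene averaged, 4 with median centring, 0 with only the 4 arrays compared, 4 with the replicate block and 4 with array weights, and 2 to 8 with 1 array left out (3 of the 8, without Rec-1 GSI 1, were lower). PLEK and NFKBIZ were called in each of the settings that called 4. For the difference between Rec-1 and Mino, 1 as reported, the count was 0 with averaged probe sets, with median centring, with only the arrays compared and with the replicate block, 3 with a trended robust prior, and 0 to 3 with 1 array left out. For the difference between Rec-1 and SP-49, 2 as reported, it was 0 with averaged probe sets, with only the arrays compared and with the replicate block, 1 with median centring, 6 with a trended robust prior, 1 without both arrays of narrowest signal range, and 0 to 3 with 1 array left out. Array weights and the removal of both narrow arrays were chosen after seeing the data. With 1 array left out, the Mock counts were 12 to 20 for Rec-1 and Mino (20 as reported), 19 to 27 for Rec-1 and SP-49 (24) and 25 to 26 for SP-49 and Mino (26). The counts of 0 for the inhibitor in Mino, in SP-49 and for the difference between these lines were 0 under every alternative run. A lone array left in a group is assumed to vary like the others. The same-numbered arrays did not deviate together (correlations of 0.046 in Mino, 0.094 in Rec-1 and -0.011 in SP-49), so the numbers were not taken as pairs. The alternative values for single members include the representative probe set tested alone and fits without an array from outside the comparison. In those the direction of the change could not differ, so the tally does not measure stability. For single members, 1692 alternative values kept direction and side of the threshold, 196 lost the call, and 20 reversed, all of them from another probe set of the gene. In Rec-1 with the inhibitor these were CYLD -0.0472, CFLAR -0.0255, -0.0613, -0.52 and -0.083, and PLEK -0.0143. For Rec-1 minus Mino Mock they were NFKBIA 0.10, CFLAR -0.0535 and -0.0821, GADD45B 0.42, CD80 0.0706 and CD86 0.0097. For SP-49 minus Mino Mock they were REL -0.0175, NFKBIA -0.14, CFLAR -0.0182 and TNFAIP2 -0.0158. For Rec-1 minus SP-49 Mock they were NFKBIA 0.25, TNIP1 0.0282, CYLD 0.089 and TRAF3 -0.20. The causes were not tested. Signal near 2 limits what can be read for dim members such as NFKB2, SLAMF1 and SOD2.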
